A study of Mus musculus with 2 samples.

Results

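The genes described here code for the pore-forming and auxiliary subunits of voltage-gated calcium and sodium channels, the HCN pacemaker channels, the TRPC, TRPV and TRPM cation channels, the ryanodine receptors, and the STIM and ORAI proteins of store-operated calcium entry. They were taken from a mouse expression array by a rule on the gene symbol alone, which uses no measured value. The set itself was chosen with earlier results of these data known. The rule found 73 genes among 34797 gene names, on 113 probes and 122 spots. Of these genes, 51 were measured on both arrays (69.9%), against 60.4% of 35158 genes, the number after part of the probes were renamed through RefSeq.

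GnRH was given at 50 nM for 30 min to mouse cells labelled GT1-7, and the comparison cells received DMSO, the vehicle, for 30 min. Each group was 1 array, hybridised with Cy3-labelled cRNA of total RNA, and both arrays lay on 1 slide. GT1-7 is an immortalised line that the labels call hypothalamic neurons, and nothing in them says how many cultures an array stands for. The free-text description of both samples names 100 nM bradykinin and A549 cells instead, whereas their titles, source names and characteristics name GT1-7 and GnRH or DMSO. With no replicate there is no test, and every difference below compares these arrays, not the conditions. In such bulk RNA, fewer cells with a transcript and less of it per cell cannot be told apart.

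Voltage-gated calcium and sodium channels open on depolarisation: sodium channels carry the upstroke of the action potential, and calcium channels turn electrical activity into calcium entry that drives secretion. GnRH acts through the GnRH receptor, which couples to phospholipase C and the release of calcium from internal stores by IP3. STIM proteins sense the emptying of those stores and open ORAI channels in the plasma membrane, and several TRPC channels open downstream of phospholipase C. In GnRH neurons and gonadotropes these currents underlie firing and hormone release.

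A few probe sequences are given first, since each value below is the signal of a 60 nt probe at 1 place in a transcript. They belong to Cacna1c and Cacna1i, the genes given as markers of the set, and to Trpc6 and Trpm3, which had the highest and the next to lowest difference. Others belong to Scn8a, which lay just above the central 95% of genes of like signal, and to Scn2a1, for its probe printed 10 times. All are written 5′ to 3′ on the strand named, with mm9 coordinates of the whole probe as the array's files give them. Whether a probe lies in a coding exon or an untranslated region was not assigned, because an mm9 annotation was not used here. Capitals mark the polyadenylation hexamer AATAAA in the brighter Cacna1i probe and a run of 8 TG repeats in the brightest Scn8a probe.
Cacna1c, chr6:118544079-118544138, minus strand: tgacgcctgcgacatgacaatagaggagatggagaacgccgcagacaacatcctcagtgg
Cacna1i, chr15:80225995-80226054, plus strand, dimmer probe: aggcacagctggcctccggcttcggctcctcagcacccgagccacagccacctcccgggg
Cacna1i, chr15:80228652-80228711, plus strand, brighter probe, bases 29 to 58: agcgttgttttgAATAAAaccccagaaacg
Scn8a, chr15:100875702-100875761, plus strand, brightest probe, bases 14 to 43: tgtaTGTGTGTGTGTGTGTGaagaatgtac
Scn8a, chr15:100766904-100766963, plus strand: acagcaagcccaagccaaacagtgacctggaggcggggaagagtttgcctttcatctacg
Scn8a, chr15:100848863-100848922, plus strand: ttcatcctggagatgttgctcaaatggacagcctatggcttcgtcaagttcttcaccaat
Scn2a1, chr2:65603503-65603562, plus strand, the probe printed 10 times, bases 1 to 30: acacacggaaagggtatacttctcatttca
Trpc6, chr9:8680682-8680741, plus strand, bases 1 to 30: agagtcctaatatcaactttttgggtgatt
Trpm3, chr19:23000491-23000550, plus strand: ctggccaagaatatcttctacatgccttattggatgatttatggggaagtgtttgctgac

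Of the 113 member probes, 16 held AATAAA (14.2%), against 10.1% of all probes on the array. A run of at least 5 TG repeats was found in 1 member probe, that of Scn8a, and in 0.316% of all probes. No stretch of 20 bases was shared by probes of different members. The median GC content of the member probes was 43.3%, equal to that of all probes. Member probes measured on both arrays had a median GC content of 45.0%, and those not so measured had 40.9%, whereas all probes had 43.3% in both classes.

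Levels below are relative signals, meaning the processed intensity of a probe as a percentage of its array's 75th percentile, and they are set only against the same probe on the other array. Differences are log2 GnRH minus vehicle, each with the error of the scanner software over both arrays (n = 1 array a group). That error mostly reflects a fixed software setting and holds no replicate spread. It is near 0.20 for bright probes, whereas the central 95% of the brightest genes differed by -0.14 to 0.18. Nearly all bright genes therefore lie within it. A gene's value is that of its brightest probe, taken from the probes that both arrays measured. On the GnRH array 56.9% of spots were well above background, against 55.2% on the vehicle array. The lowest relative signal so marked was 2.60 on the GnRH array and 2.82 on the vehicle array, and no spot was saturated. Fos, an immediate early gene, had relative signals of 1242 on the GnRH array and 19.6 on the vehicle array (difference 5.98 ± 0.07), and Egr1 had 4500 and 12.7 on the same arrays (difference 8.47 ± 0.22). Gnrh1, which defines GnRH neurons, was well above background on neither array, at 1.91 on the GnRH array and 1.37 on the vehicle array. Its absence goes against the label. Isl1, Otx2 and Dlx5 of the same marker list were measured on both arrays, Otx2 and Dlx5 at low signal. Isl1 differed by 0.11 ± 0.07. Otx2 had 9.21 on the GnRH array and 13.9 on the vehicle array (-0.59 ± 0.23). The other Otx2 probe, well above background on the GnRH array alone, went the other way (0.95 ± 0.61). Dlx5 rests on 1 probe of low signal, with 5.78 on the GnRH array and 3.75 on the vehicle array (0.62 ± 0.37). Of the pituitary gonadotrope markers, Cga, Nr5a1, Pitx1 and Lhb were well above background on both arrays and Fshb on neither. Cga had 12834 on the GnRH array and 13925 on the vehicle array. On the same arrays Nr5a1 had 5286 and 5779, Pitx1 8128 and 8338, and Lhb 13.3 and 12.4. Which cell type the RNA came from was not tested. Gnrhr, the GnRH receptor, had 2522 on the GnRH array and 2571 on the vehicle array. Of the neuronal genes Snap25 and Tubb3 were well above background on both arrays, Rbfox3 on the GnRH array alone and Stmn2 on neither. Of markers of other cell types, 2 of 3 for astrocytes, 3 of 3 for oligodendrocytes, 2 of 3 for microglia, 1 of 4 for muscle and 0 of 3 for epithelium were measured on both, and their part in any channel signal was not tested.

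The channel genes differed little between the arrays. At a threshold of 1.5-fold, 1 of the 51 measured members was higher on the GnRH array (1.96%), against 1.19% of all 21218 measured genes, and 0 were lower, against 0.881% of all genes. At 2-fold, 0 members were higher and 0 were lower, against 0.311% and 0.132% of all genes. No member differed by more than 2 scanner errors in either direction, against 1.54% of all genes higher and 1.15% lower. The median difference was -0.02 over the members and -0.01 over all measured genes. The middle 50% of members lay between -0.10 and 0.08, and the middle 50% of all genes lay between -0.08 and 0.07. Of the members, 21 were above 0 (41.2%), against 47.5% of all genes.

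**Figure D1:**
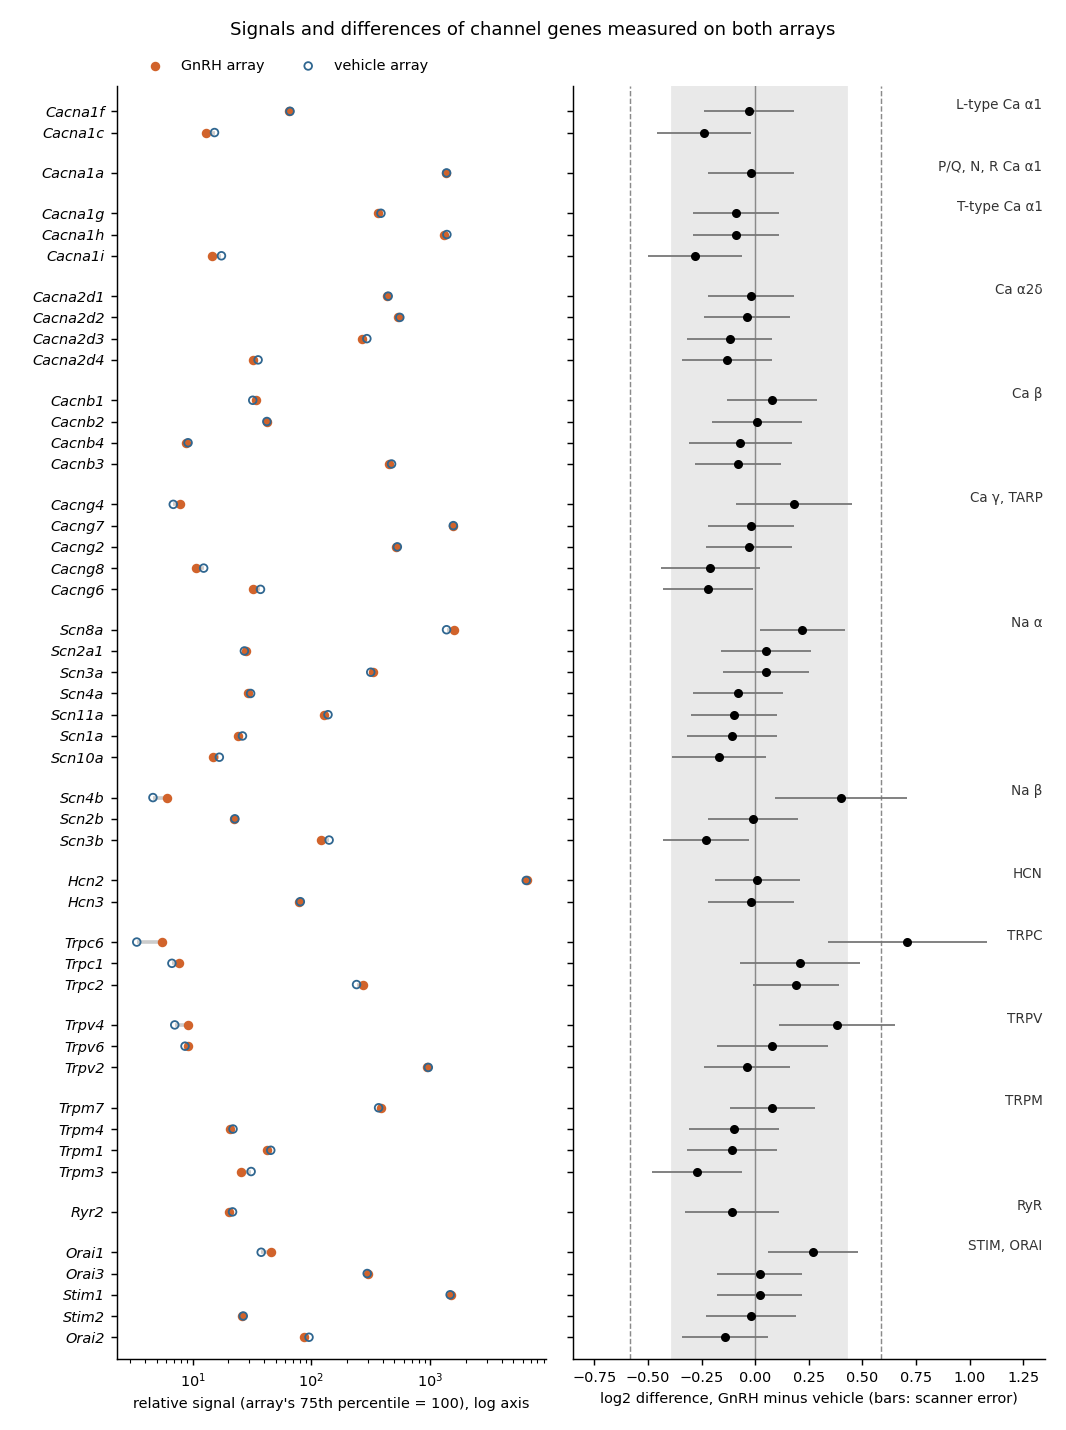
Each row is a channel gene measured on both arrays and reported here, grouped by subfamily. The left panel gives its relative signal on a log axis (filled, GnRH array; open, vehicle array), and the right panel its log2 difference, GnRH minus vehicle, with a bar of 1 scanner error on each side, dashed lines at 1.5-fold and a grey band for the central 95% of all genes (-0.39 to 0.43). Trpc6 at 0.71 lies past 1.5-fold, and the other genes shown lie between -0.28 and 0.40.

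The share of members measured differed between subfamilies, which held 3 to 10 genes each. Of all genes 60.4% were measured, and the TRPC genes at 57.1% and the gamma and TARP genes at 62.5% lay near that. A gene counted as measured if any of its probes was, so genes with more probes had more chances. All 3 T-type alpha1 genes, all 4 alpha2delta genes, all 4 calcium beta genes, all 4 sodium beta genes and all 5 STIM and ORAI genes were measured on both arrays. By contrast, 2 of 4 L-type alpha1 genes, 1 of 3 genes for P/Q-, N- and R-type alpha1 subunits, 1 of 3 ryanodine receptors, 4 of 7 TRPC genes, 3 of 6 TRPV genes and 4 of 8 TRPM genes were. Between these stood 5 of 8 gamma and TARP genes, 8 of 10 sodium alpha genes and 3 of 4 HCN genes.

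**Figure D2:**
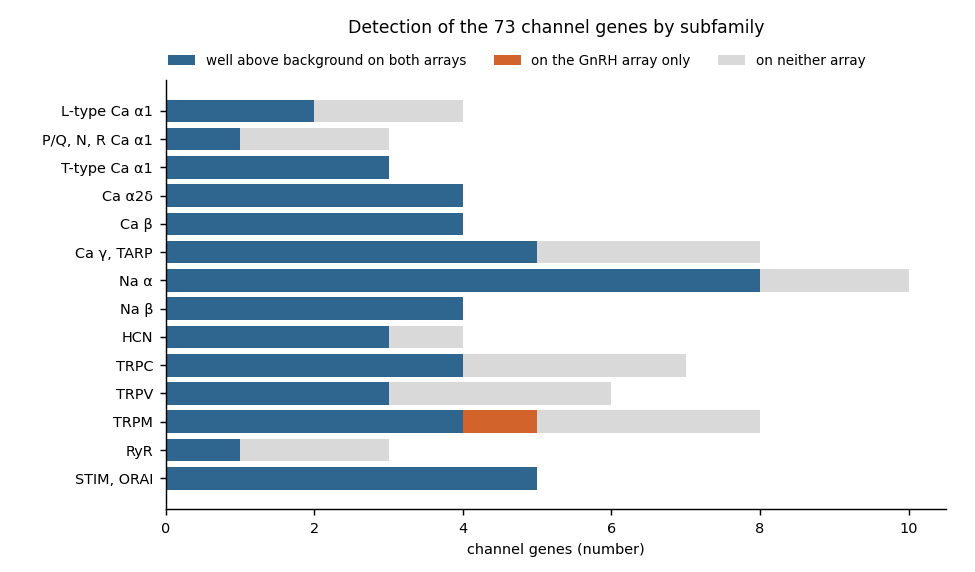
Stacked bars count the members of each subfamily by whether the gene was well above background on both arrays, on the GnRH array alone, or on neither. Auxiliary calcium and sodium beta subunits, alpha2delta subunits, T-type channels and store-operated entry genes are measured throughout, and TRP, ryanodine receptor and high-voltage alpha1 genes in part.

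The L-type channels are the calcium channels blocked by dihydropyridines. Cacna1c, which codes for the CaV1.2 pore, had a relative signal of 12.9 on the GnRH array and 15.3 on the vehicle array, a difference of -0.24 ± 0.22. Its signal was thus lower on the GnRH array by slightly over 1 scanner error, on a single probe near the dim end of the arrays. With normexp, another background correction, and with none, the Cacna1c difference was -0.09. Here normexp adds an offset of 50 to the signal, and without correction the background stays in it. Both settings thus draw the difference of a dim probe toward 0, here and for the dim genes below. Cacna1f, known from retinal photoreceptors, had 64.8 on the GnRH array and 66.1 on the vehicle array (-0.03 ± 0.21), and its other probe differed by -0.24. Cacna1d, the CaV1.3 pore of neuroendocrine pacemaking, and Cacna1s of skeletal muscle were well above background on neither array with any of their probes.

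The P/Q-, N- and R-type channels trigger transmitter release at nerve terminals. Cacna1a, the P/Q-type pore, had 1351 on the GnRH array and 1374 on the vehicle array, and its 2 probes both differed by -0.02. Cacna1b of N-type channels and Cacna1e of R-type channels were well above background on neither array.

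The T-type channels open at voltages near rest and support rebound and pacemaker firing. All 3 of their pores gave negative differences, with a median of -0.09. Cacna1i, the CaV3.3 pore, had the lowest difference of any member. Its brighter probe had 14.5 on the GnRH array and 17.5 on the vehicle array (-0.28 ± 0.22), and its dimmer probe had 13.5 on the GnRH array and 15.3 on the vehicle array (-0.18 ± 0.22). The probes, which lie at separate places in the sequences printed above, were thus both lower on the GnRH array, the dimmer one by less than its error. The Cacna1i difference was -0.10 with normexp and -0.08 without background correction. Cacna1g had 361 on the GnRH array and 385 on the vehicle array (-0.09 ± 0.20). Cacna1h had 1303 on the GnRH array and 1382 on the vehicle array (-0.09 ± 0.20), but its dimmer probes went the other way, at 0.16 and 0.20. With the mean over probes the Cacna1h difference turned to 0.09.

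Alpha2delta subunits bring calcium channels to the membrane and bind gabapentin in the case of the products of Cacna2d1 and Cacna2d2. All 4 genes lay below 0, between -0.13 for Cacna2d4 and -0.02 for Cacna2d1, so each was within its scanner error. Cacna2d1 came to 0.00 under the alternatives nearest to 0. Cacna2d4 had 32.5 on the GnRH array and 35.6 on the vehicle array (-0.13 ± 0.21). Cacna2d3 had 269 on the GnRH array and 293 on the vehicle array (-0.12 ± 0.20), and Cacna2d2 lay at -0.04.

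The beta subunits sit on the inner face of calcium channels and set their gating and trafficking. Their differences were small and of both signs, with Cacnb1 at 0.08, Cacnb2 at 0.01, Cacnb4 at -0.07 and Cacnb3 at -0.08. Cacnb3 had 449 on the GnRH array and 473 on the vehicle array. Cacnb2 had 42.5 on the GnRH array and 42.2 on the vehicle array, with a dimmer probe at 0.25.

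The gamma genes code for a muscle channel subunit, Cacng1, its relative Cacng6, and the TARP proteins that escort AMPA receptors. Of the 5 measured, Cacng6 had 32.0 on the GnRH array and 37.3 on the vehicle array (-0.22 ± 0.21). Cacng8, a TARP gene, had 10.7 on the GnRH array and 12.4 on the vehicle array (-0.21 ± 0.23), a difference within its error. Cacng4, another TARP gene, went the other way, with 7.79 on the GnRH array and 6.88 on the vehicle array (0.18 ± 0.27). Cacng7 had 1541 on the GnRH array and 1565 on the vehicle array (-0.02 ± 0.20), and Cacng2, the stargazin gene, lay at -0.03. Cacng1, Cacng3 and Cacng5 were well above background on neither array.

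Of the sodium alpha subunits, which form the pore, 4 were above 0 and 4 below. Scn8a, the NaV1.6 pore of the axon initial segment, had 1601 on the GnRH array and 1373 on the vehicle array with its brightest probe (0.22 ± 0.20). That is the probe with the TG repeats printed above. The other Scn8a probes had 42.6 on the GnRH array and 41.4 on the vehicle array (0.04 ± 0.21) and 6.74 and 5.33 on the same arrays (0.34 ± 0.33). All 3 probes were therefore on the same side of 0. Scn10a, the NaV1.8 pore known from sensory neurons, had 14.9 on the GnRH array and 16.8 on the vehicle array (-0.17 ± 0.22). Scn3a gave 327 on the GnRH array and 316 on the vehicle array with its brightest probe (0.05 ± 0.20), whereas its other measured probes lay at -0.07, -0.11 and -0.38, the widest range among probes of any member. Scn11a, Scn1a and Scn4a lay at -0.10, -0.11 and -0.08, each within its error. Scn7a and Scn9a were well above background on neither array.

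Among the members, Scn2a1, the gene for NaV1.2, alone had a probe printed 10 times, which shows the spread within an array. On the GnRH array the 10 spots had a lowest relative signal of 7.72, a median of 10.5 and a highest of 12.6. On the vehicle array they had a lowest of 8.70, a median of 10.8 and a highest of 11.8. The spots of both arrays overlapped. Taken position by position, the difference averaged 0.03 with an SD of 0.29 over the 10 positions, between -0.50 and 0.53, and 5 of 10 were above 0. That SD, of single spots at this dim signal, was larger than the absolute difference of 48 of the 51 measured members. Most members had brighter signals, at which differences spread less, so that SD is no measure of their noise. The spots are technical repeats of 1 hybridisation. The gene's value came from a brighter probe, with 28.2 on the GnRH array and 27.3 on the vehicle array (0.05 ± 0.21).

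Sodium beta subunits modulate the pore and act as adhesion molecules. Scn4b had 6.13 on the GnRH array and 4.64 on the vehicle array (0.40 ± 0.31), and the difference was 0.17 with normexp and 0.19 without background correction. Scn3b had 120 on the GnRH array and 141 on the vehicle array (-0.23 ± 0.20), the opposite sign. Scn2b had 22.5 on the GnRH array and 22.7 on the vehicle array (-0.01 ± 0.21).

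HCN channels open on hyperpolarisation and bind cyclic AMP. Hcn3 had 79.3 on the GnRH array and 80.7 on the vehicle array (-0.02 ± 0.20). Hcn2 had 6470 on the GnRH array and 6431 on the vehicle array with its brightest probe (0.01 ± 0.20), and 834 on the GnRH array and 983 on the vehicle array with another (-0.24 ± 0.20). With the mean over probes the Hcn2 difference was -0.11. Hcn4, the pacemaker isoform of the sinoatrial node, was well above background on neither array.

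The TRPC channels are nonselective cation channels, several of which open after phospholipase C activation. Trpc6, Trpc1 and Trpc2 were higher on the GnRH array, Trpc1 and Trpc2 by less than their scanner error. Trpc6 had 5.53 on the GnRH array and 3.39 on the vehicle array, a difference of 0.71 ± 0.37 and the largest of any member. It rests on 1 probe at 1 spot, near the lowest signal called above background. With normexp background correction the Trpc6 difference was 0.19, and with no background correction it was 0.24, so its place past 1.5-fold depends on how background was subtracted. Trpc1 had 7.76 on the GnRH array and 6.70 on the vehicle array (0.21 ± 0.28). Trpc2, known as the vomeronasal transduction channel of mice, had 273 on the GnRH array and 240 on the vehicle array (0.19 ± 0.20), with other probes at 0.06 and -0.16. Trpc4, Trpc5 and Trpc7 were well above background on neither array.

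Among TRPV genes, Trpv4, an osmotically and thermally gated channel, had 9.19 on the GnRH array and 7.08 on the vehicle array (0.38 ± 0.27), and the difference was 0.19 both with normexp and without background correction. Trpv6, an epithelial calcium channel, lay at 0.08 and Trpv2 at -0.04. The capsaicin receptor Trpv1, together with Trpv3 and Trpv5, was well above background on neither array.

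Among TRPM genes, Trpm3, a steroid- and heat-sensitive channel, had 25.7 on the GnRH array and 31.1 on the vehicle array (-0.27 ± 0.21), which came to -0.18 with normexp and -0.13 without background correction. Its other probes were not well above background. Trpm1 had 42.0 on the GnRH array and 45.5 on the vehicle array (-0.11 ± 0.21), and Trpm4, a calcium-activated monovalent channel, had 20.5 on the GnRH array and 21.9 on the vehicle array (-0.10 ± 0.21). Trpm7, a channel fused to a kinase, lay at 0.08. Trpm2, Trpm5 and Trpm6 were well above background on neither array. Trpm8, the cold and menthol receptor, was the single member well above background on 1 array alone. It had 3.21 on the GnRH array and 2.39 on the vehicle array, a difference within its scanner error (0.42 ± 0.48).

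Store-operated entry showed no common direction. Orai1, the pore subunit, had 45.4 on the GnRH array and 37.8 on the vehicle array (0.27 ± 0.21), and its other probe lay at 0.05. Orai2 had 86.6 on the GnRH array and 95.5 on the vehicle array (-0.14 ± 0.20). The sensors Stim1 and Stim2 lay at 0.02 and -0.02, and Orai3 lay at 0.02. Ryr2, the ryanodine receptor that releases stored calcium in heart and brain, had 20.2 on the GnRH array and 21.7 on the vehicle array (-0.11 ± 0.22), and Ryr1 and Ryr3 were not well above background.

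The size of a difference went with the signal of the probe. Measured genes were split into 4 bins of equal size by their mean relative signal. In the dimmest bin the central 95% of all genes spanned -0.62 to 0.63, and in the brightest it spanned -0.14 to 0.18. The bins held 13, 20, 11 and 7 members, dim to bright. Of the 51 members, 49 lay inside the central 95% of their own bin, 2 lay above it, Trpc6 and Scn8a, and 0 lay below. By construction 95% of all genes lie inside, so this share of members is near that of all genes. Scn8a, at 0.22 ± 0.20, lay just past the limit of 0.18. The Scn8a value is that of its probe with the TG repeats, whose part in the signal was not tested. The dimmer Scn8a probes, at 0.04 ± 0.21 and 0.34 ± 0.33, lay inside the spans for their signal. Cacna1c, Cacna1i, Trpm3, Scn4b, Trpv4 and Orai1 all lay inside.

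**Figure D3:**
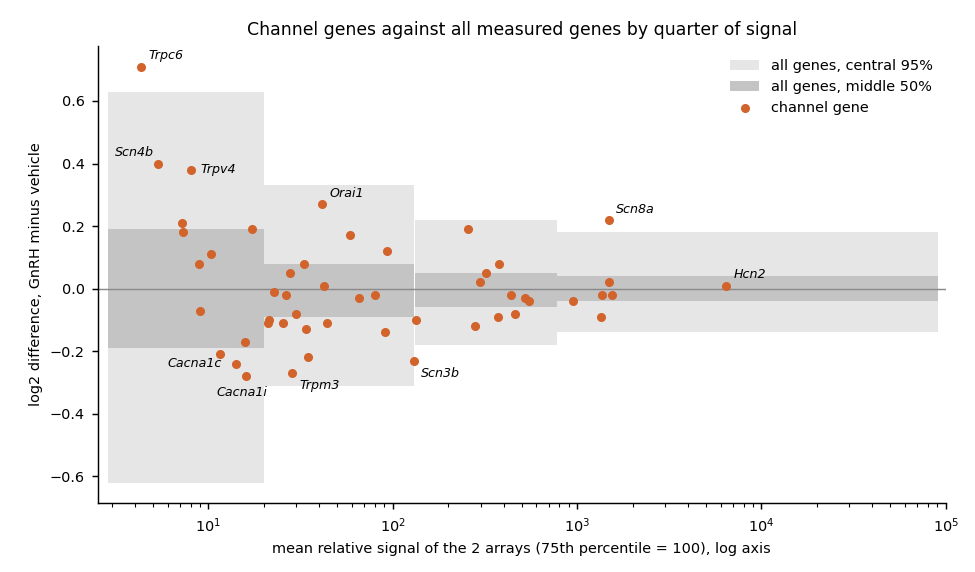
Points are channel genes, with mean relative signal of both arrays on a log axis and the log2 difference, GnRH minus vehicle, on the vertical axis. Grey bands give the middle 50% and central 95% of all measured genes in each of 4 bins of signal, and Trpc6 at 0.71 and Scn8a at 0.22 stand above their bands. The Scn8a point is its probe with the TG repeats.

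Differences past 1 scanner error were found in 5 members higher on the GnRH array, Trpc6, Scn4b, Trpv4, Orai1 and Scn8a (9.80%), against 7.34% of all genes. They were found in 5 members lower on the GnRH array, Cacna1i, Trpm3, Cacna1c, Scn3b and Cacng6 (9.80%), against 6.78% of all genes. Both shares are near those of all genes.

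Several probes of a gene show how far its value depends on the probe. For 19 members with 45 measured probes, the median range of differences among probes of a gene was 0.22, close to the median scanner error of 0.206. The probes were all above 0 in 3 members (Cacnb2, Orai1 and Scn8a), all below 0 in 7 (Cacna1a, Cacna1f, Cacna1g, Cacna1i, Cacna2d1, Cacna2d2 and Orai2), and of both signs in 9. The other 32 members rest on 1 measured probe, Cacna1c, Trpc6, Trpm3, Scn4b, Trpv4 and Scn3b among them.

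**Figure D4:**
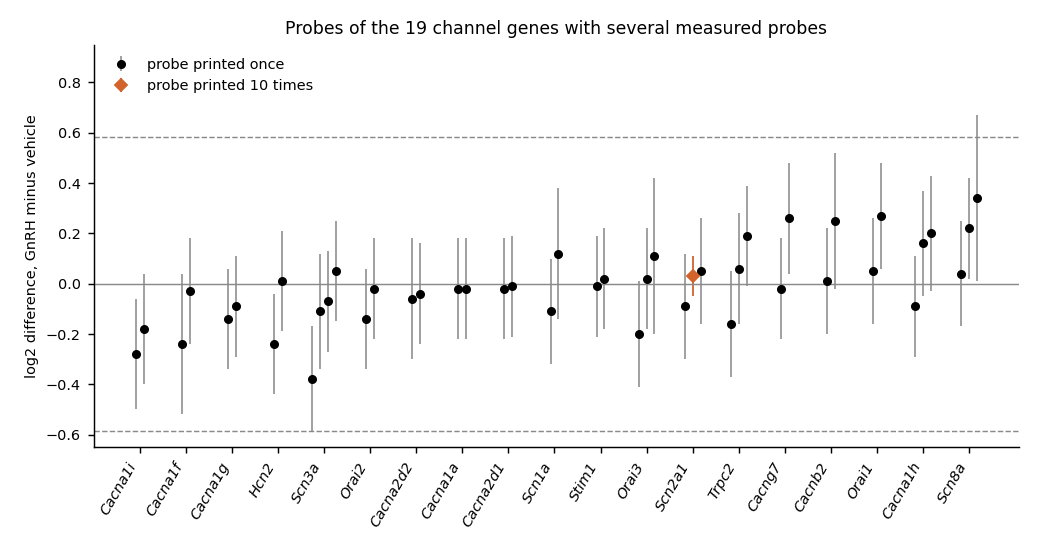
Each column is a member with several measured probes, each point is 1 probe with a bar of 1 scanner error on each side, and the vertical axis gives the log2 difference, GnRH minus vehicle, with dashed lines at 1.5-fold. The diamond is the Scn2a1 probe printed 10 times. The Scn3a probes span 0.43, and the 2 Cacna1i probes both lie below 0.

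The 22 members not measured on both arrays had 27 probes, with relative signals between 0.531 and 3.21 on the GnRH array and between 0.582 and 2.39 on the vehicle array. Their order has no meaning at this signal. Whether their transcripts were present below that level was not detectable here.

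Genes that act on or beside these channels were looked at in lists of 82 genes, of which 67 were measured. The lists were chosen with earlier results of these data known, so their counts cannot be weighed fairly against the shares of all genes. The median difference of the 67 was -0.03. At 1.5-fold 2 of the 67 were higher on the GnRH array, against 1.19% of all genes, and 1 was lower, against 0.881% of all genes. Gem, a small GTPase that inhibits voltage-gated calcium channels, had 804 on the GnRH array and 362 on the vehicle array (1.15 ± 0.20), and its other probe differed by 0.72. Its relative Rrad was well above background on the GnRH array alone, at 14.8, against 1.60 on the vehicle array, at least 5.24-fold higher. The Rrad spot lay in an area of the array where neighbouring spots differed together, by a median of 0.53, and the part of that area in the result was not tested. Rem2, another member of that family, lay at 0.24, and Stac, an adaptor of L-type channels, at -0.18.

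Fgf14, an intracellular partner of sodium channels, had 10.2 on the GnRH array and 5.68 on the vehicle array (0.84 ± 0.27), and its other measured probe differed by 0.40. The Fgf14 difference was 0.34 with normexp and 0.38 without background correction, under 1.5-fold in both. The related Fgf13 and Fgf11, both of low signal, lay at 0.42 ± 0.33 and -0.29 ± 0.27. Pkd2l2, a TRP channel of the polycystin family, had 3.36 on the GnRH array and 5.24 on the vehicle array (-0.64 ± 0.36), near the background limit. Its difference was -0.22 with normexp and -0.07 without background correction, so it too was under 1.5-fold. Itprip, which binds IP3 receptors, had 2070 on the GnRH array and 1450 on the vehicle array (0.51 ± 0.20), while the receptors Itpr1, Itpr2 and Itpr3 lay at -0.08, -0.10 and 0.06. A spot of Itpr3 lay in an area where neighbouring spots differed together. The 17 CaM kinase and calcineurin genes lay between -0.19 and 0.07, with a median of -0.02, and Camkk1 was the lowest. The 15 measured calcium pumps and exchangers had a median of -0.02 as well. They lay between -0.42 ± 0.25 for the mitochondrial exchanger Slc8b1 and 0.38 ± 0.34 for Slc24a4, both of low signal. Of 12 measured genes for other TRP, lysosomal and mitochondrial calcium channels, 10 were below 0 and 2 above, with a median of -0.10, against 47.5% of all genes above 0 and a median of -0.01, and Micu3, a regulator of the mitochondrial uniporter, lay at -0.35 ± 0.23.

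**Figure D5:**
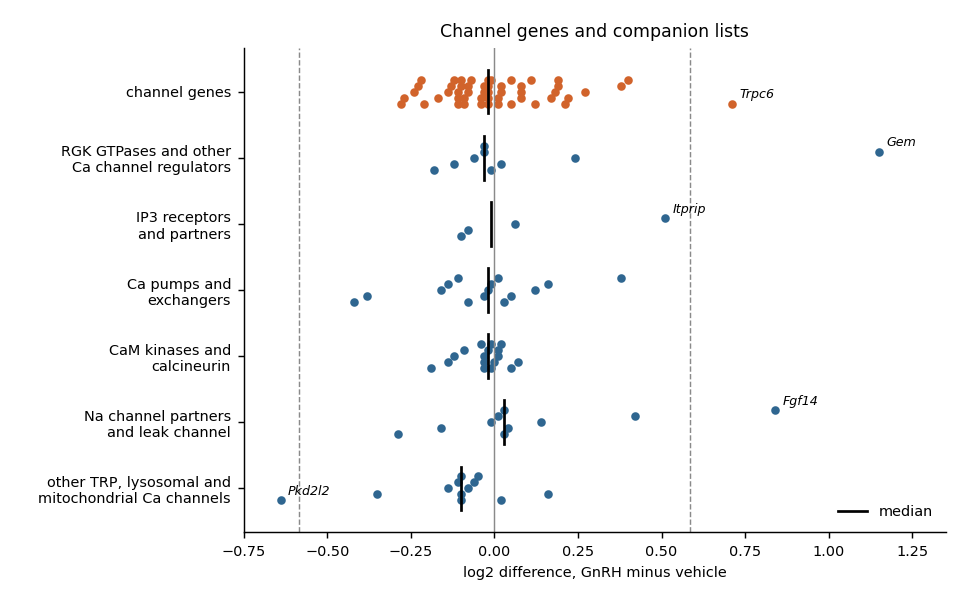
Rows are the channel genes and the companion lists, each point is a gene measured on both arrays, black bars are medians, and the horizontal axis gives the log2 difference, GnRH minus vehicle, with dashed lines at 1.5-fold. Gem at 1.15 and Fgf14 at 0.84 lie to the right of every channel gene. The companion lists were chosen with earlier results of these data known.

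Promoters were searched for motifs of factors that act early after GnRH, as a description. Of the 73 members, 58 had a promoter in RefSeq's GRCm38.p6 table, from 250 bases before to 50 after the start. The full CRE, TGACGTCA, the site of CREB, was in 0 of 58, against 2.03% of all promoters, searched on both strands. Its core, TGACG, was in 15 of 58 (25.9%), Cacna1c, Cacna1i, Trpc6 and Orai1 among them, against 23.0% of all promoters. The EGR site GCGTGGGCG was in 1, that of Scn7a (1.72%), against 0.707% of all. A match is a run of letters in this window, not a site shown to be bound.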

How the data were processed

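Cy3-labelled cRNA from total RNA was measured on 1-colour Agilent arrays of 60 nt mouse probes, per the labels' protocols. The deposited scanner files hold spot intensity on a linear scale, from which the scanner software had already subtracted background, per the file headers (Feature Extraction 10.7.1.1; the submitters' processing notes give 9.5.1.1). The authors' deposited value table, used as an alternative, also holds intensity; its columns had medians of 28.44 and 28.44, and its differences correlated with those of the scanner files at 0.998 across 29665 probes.

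Control spots and outlier spots (94 on the GnRH array, 121 on the vehicle array) were left out, log2 signals of a probe's spots were averaged, and each array's 75th percentile (541 for GnRH, 578 for vehicle) was subtracted. A probe was taken as measured on an array if the software marked 50% or more of its spots there as well above background. Scanner errors mostly reflect the software's multiplicative setting of 0.1 and no replicate spread. Of the probes, 27235 were named through accessions in RefSeq; Scn2a1 is Scn2a and Trpc2 is Xntrpc there. Named were both marker genes, members past 1.5-fold or above background on 1 array, and in each subfamily up to 3 members with the largest differences and the one with the smallest, some of which are not reported here; from the companion lists, genes past 1.5-fold and up to 3 a list with the largest differences. The members, lists and alternatives were chosen with earlier results of these data known. The 3 areas where neighbouring spots differed together, found with a median limit of 0.3 within 2 rows and columns, held 600 spots, none of them of a member. Python 3.11.15, numpy 2.4.6, pandas 2.3.3, R 4.3.3 and limma 3.58.1 (for normexp) were used. The scaling and the gene values were tested on simulated data. Those data had the vehicle array's background marks on both arrays and equal noise at every signal, so detection and dim probes were not tested.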

Additional observations from a re-analysis of the deposited data

How the results depend on the processing

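The counts at 1.5-fold and 2-fold, the medians of the members and companion lists, the differences of the measured members and those of Gem, Fgf14 and Pkd2l2 were recomputed under 12 alternatives of scaling, background correction, source of values, filtering, probe summary, outlier spots, background call and array areas. The counts of members above background were recomputed under 3 alternatives. Counts past a scanner error, signal bins, probe ranges, spot spread, motifs and other companion genes were not. Of 599 member differences so obtained, 2 moved by more than their scanner error, both of Trpc6. Many of the 599 could hardly move. No member had an outlier spot or a spot in an area, and the filters and the looser call mostly kept a gene's brightest probe. The authors' table gave the same counts as quantile normalization. The number of moves is thus no measure of how robust the values are. Trpc6, the only measured member past 1.5-fold in the values reported, kept its sign. Smaller differences did not all do so: Hcn2 kept its sign in 5 of 12 alternatives and Stim1 in 8 of 12, and Cacna1h reached 0.09. For Hcn2 the 5 were those of filtering, outlier spots, background call and areas, which left its value nearly as it was. Under all the others Hcn2 came to 0.00 or below. A move within the scanner error can be large beside the difference, as for Cacna1i, which went from -0.28 to -0.08. The members' median stayed between -0.05 and 0.01. Members past 1.5-fold higher, 1 of 51 in the values reported, numbered 0 with normexp and 0 without background correction. The filters and the call also changed how many members were counted. There were 0 of 38 past 1.5-fold higher under the stricter filter, 4 of 73 without a filter and 3 of 60 under the looser background call. Without a filter 2 members were 1.5-fold lower and the same number 2-fold lower, Trpc5 and Trpm6, both not above background. The genes counted numbered 21218 in the values reported, 35016 without a filter, 15913 under the stricter filter and 25805 under the looser call. Over all genes, the 253 that were 1.5-fold higher became 85 with normexp, 88 without background correction, 2647 without a filter, 86 under the stricter filter and 1412 under the looser call. The 187 that were 1.5-fold lower became 25, 22, 1666, 24 and 955 in the same order. The 66 that were 2-fold higher became 1259 without a filter and 552 under the looser call. The 28 that were 2-fold lower became 12 with normexp, 12 without background correction, 760 without a filter, 9 under the stricter filter, 311 under the looser call and 14 without the areas. Under the looser call 2 members were above background on the GnRH array alone, 3 on the vehicle array alone and 8 on neither. The list of RGK GTPases and other calcium channel regulators had a mean of 0.11 in place of its median of -0.03. The causes were not tested. No paired analysis was possible because each group is 1 array. Signal near background limits the dim members most.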
